A study of Homo sapiens with 12 samples.

Results

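The myeloid C-type lectins described here are 10 genes of the deposited count table, chosen by symbol: CLEC7A, CLEC4E, CLEC4D, CLEC5A, CLEC4A, CLEC12A, CLEC10A, CD209, CLEC2B and CLEC2D. All 10 were found among its 58735 genes. The cells were macrophages of the THP-1 line, which derives from a human monocytic leukaemia. For 6 libraries they were transfected with a mimic of miR-122-5p, a microRNA, and for the other 6 with a control microRNA mimic, in both cases at 30 nM with RNAimax for 24 h. Both groups were then rested and given lipopolysaccharide (LPS), a bacterial cell wall component, for 4 h, so no library without LPS was compared. The stated purpose was the immunoregulatory action of miR-122-5p carried by exosomes. The sources used here give neither how the cells were made into macrophages nor whether the 6 libraries of a group came from separate cultures; p-values therefore measure the spread among libraries, part or all of which could be technical.

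C-type lectin receptors are membrane proteins with a shared extracellular fold that in many members binds sugars in a calcium-dependent way. On macrophages and dendritic cells they sense fungal and mycobacterial glycans, take up glycoproteins, and recognise products of damaged cells. Some signal through the kinase SYK and the adaptor CARD9, either by a tyrosine motif of their own or through the partner chains FCER1G and TYROBP. Others carry an inhibitory motif that recruits phosphatases, and some serve as ligands for receptors on natural killer cells.

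The mimic is a copy of mature miR-122-5p, and its sequence is shown because its seed, bases 2 to 8 in capitals, sets which transcripts it can pair with. The 22-base sequence is RefSeq's (GRCh38.p14, chr18:58451088-58451109, plus strand).
hsa-miR-122-5p: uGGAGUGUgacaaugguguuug
The longest annotated 3′ UTR of each of the 10 genes was searched for the complement of the seed. An 8mer match (ACACTCCA), a 7mer-m8 or a 7mer-A1 was found in 0 of the 10. Among the 12872 tested genes with an annotated 3′ UTR, 3.22% had an 8mer, 5.73% a 7mer-m8 and 15.0% a 7mer-A1 as their strongest match. A 6mer, the complement of bases 2 to 7 alone, was present in CD209 and, outside its longest 3′ UTR, in a shorter annotated 3′ UTR of CLEC10A. Both are shown with the 6mer in capitals. The CD209 match lies 2371 bases into a 3′ UTR of 3045 bases (chr19:7740663-7740668, minus strand), and the CLEC10A match 298 bases into one of 517 bases (chr17:7074751-7074756, minus strand), in GRCh38 coordinates of GENCODE 29.
CD209 6mer: ctctcagcaacCACTCCtcatgtaatct
CLEC10A 6mer: taggtgactacCACTCCgatcgcaatag
A 6mer was the strongest match in 12.97% of the tested genes with a 3′ UTR. These are letters in the annotated UTRs, and binding was not measured.

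Libraries held 29473750 to 39468157 gene counts, so 1 count was worth 0.0258 to 0.0336 CPM (counts relative to library size, scaled by composition factors). Control libraries 1 and 6 stood apart in earlier results; here the median distance of a gene from its group's median was 0.204 (log2) in control library 1 and 0.0772 to 0.151 in the other 11, with control library 6 at 0.140. Of 12 macrophage or monocyte markers, 10 averaged at least 10 CPM, led by CSF1R, ITGAX and ITGAM, and CD68 was the lowest at 0.227 CPM. Of 7 T cell markers CD3D, CD3E and CD28 were at 0 in all libraries, but CD4 averaged 94.4 and TRAC 22.7 CPM. CEACAM8 was at 0 among 6 neutrophil markers while ELANE averaged 555 CPM, and of 6 natural killer cell markers PRF1 averaged 70.9, GNLY 28.7 and NCAM1 10.4 CPM, with KLRF1 and KLRD1 near 0. The summed levels of these 3 lists overlapped between the groups (110.9 to 140.2 against 95.8 to 117.0 CPM for T cells, 512.5 to 678.3 against 507.8 to 706.9 for neutrophils and 90.8 to 125.6 against 92.8 to 127.9 for natural killer cells). The dendritic cell marker FCER1A and the plasmacytoid marker CLEC4C were at 0. The summed level of 6 conventional dendritic cell markers ran from 369 to 484.7 CPM with miR-122-5p and from 736.5 to 950.3 CPM with the control mimic, nearly all of it CCR7, while CD1C averaged 1.57 CPM and CLEC9A 0.0192 CPM. The sum of 4 plasmacytoid markers, mostly IL3RA, was 22.8 to 28.7 CPM against 72.5 to 86.8 CPM. That of 3 hepatocyte markers, mostly APOA1, was 11.2 to 13.9 CPM with miR-122-5p and 6.45 to 8.63 CPM with the control mimic. The macrophage or monocyte sums overlapped (1609 to 1765 against 1720 to 2092 CPM). The part of these markers in the results below was not tested.

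With miR-122-5p the transcripts of CLEC7A, CLEC10A, CLEC2B and CD209 were lower than with the control mimic, CLEC5A and CLEC2D did not pass the test, and CLEC4E, CLEC4D, CLEC12A and CLEC4A were at or near the limit of detection. The falls ran from 1.54-fold for CD209 to 10.1-fold for CLEC10A. In this bulk RNA, fewer cells with a transcript and less of it per cell cannot be told apart. Low counts limited the test: 9 of the 10 genes had any count and 6 passed the low-count filter, which asks for at least 10 counts in a library of median size (0.288 CPM) in enough libraries for 1 group. CLEC10A and CLEC2B each reached that level in 6 control libraries and in 1 miR-122-5p library, so they could enter the test only through the group where they were high. Across all 15471 tested genes 50.5% were called at an adjusted p under 0.05, 26.2% lower and 24.3% higher with miR-122-5p, and 16.1% had every miR-122-5p library below every control library. Against that background 4 of the 6 tested lectins were called lower and 0 higher, a count to which the filter contributed and which is given as an account of the members.

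**Figure D1:**
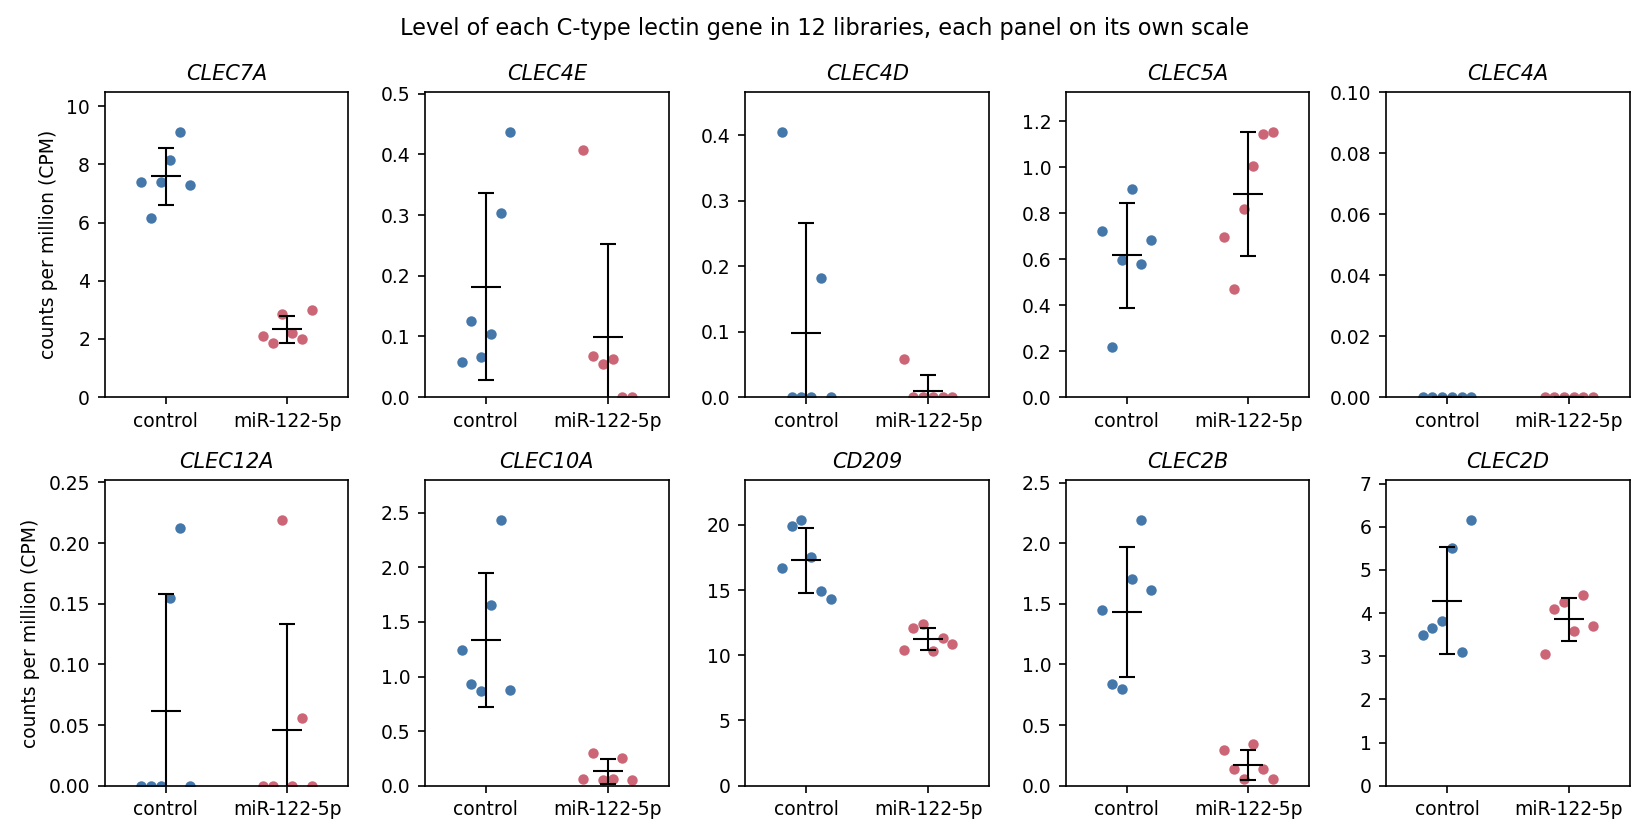
Level of each of the 10 C-type lectin genes in CPM on the vertical axis, 1 panel per gene with its own scale from 0; points are libraries (6 control, blue; 6 miR-122-5p, red), the short line is the mean and the bar the SD. CLEC7A, CLEC10A, CD209 and CLEC2B show no overlap between the groups, and CLEC4A is at 0 throughout.

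The first receptors are those that activate the kinase SYK. CLEC7A (ENSG00000172243), also called Dectin-1, is the receptor for fungal beta-glucan and signals through a tyrosine motif in its own tail. It lies on chromosome 12 (10116777 to 10130258, minus strand, GRCh38), and no exon of it overlaps another annotated gene. CLEC7A was at 1.85 (lowest), 2.15 (median) and 2.99 CPM (highest) in the 6 miR-122-5p libraries. In the 6 control libraries it was at 6.17, 7.39 and 9.12 CPM. Every control library was therefore above every miR-122-5p library. The raw counts behind these values were 55 to 106 against 198 to 315. The means were 2.33 ± 0.469 CPM (SD, n = 6) and 7.59 ± 0.982 CPM (n = 6), a log2 fold change of -1.70 ± 0.15 (SE; edgeR's quasi-likelihood test, Benjamini-Hochberg adjusted p = 6.09e-09), or 3.24-fold lower. Of the tested genes 1.82% had a lower fold change.

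CLEC4E, known as Mincle, binds the mycobacterial cord factor and signals through FCER1G, and its gene sits on chromosome 12 (8533305 to 8540963). It had 0 to 14 counts with miR-122-5p and 2 to 16 with the control mimic, 20 against 38 in all. Its levels, 0.0987 ± 0.154 CPM (SD, n = 6) against 0.182 ± 0.154 CPM (n = 6), overlapped widely. Without the filter the fitted change was -0.84 ± 0.88 (edgeR adjusted p = 0.4996). CLEC4D, also called MCL or Dectin-3, is the neighbouring gene whose product pairs with Mincle. It had 2 counts in 1 miR-122-5p library and 14 and 6 counts in 2 control libraries, with 0 in the other 9. Without the filter its adjusted p was 0.125 (edgeR), so no difference was detectable at this depth.

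CLEC5A, or MDL-1, signals through TYROBP and is known as a receptor for flaviviruses. It lies on chromosome 7 (141927357 to 141947007), where 12.01% of its exon length overlaps MGAM on the other strand, a gene with 42 counts in all libraries together. CLEC5A was at 0.471, 0.914 and 1.16 CPM (lowest, median, highest) with miR-122-5p and at 0.218, 0.641 and 0.904 CPM with the control mimic. Its median was higher with miR-122-5p, but the groups overlapped. The means were 0.883 ± 0.270 CPM (SD, n = 6) and 0.618 ± 0.228 CPM (n = 6). The log2 fold change was 0.51 ± 0.34 (edgeR adjusted p = 0.226), with an approximate 95% interval of -0.16 to 1.18, which leaves room for a rise of over 2-fold as well as for a small fall. With the GC slope covariate described below the estimate was larger, 1.32, and still not called (adjusted p = 0.179).

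The next receptors are inhibitory. CLEC4A, or DCIR, carries an inhibitory tyrosine motif and lies on chromosome 12 (8123632 to 8138607). It was at 0 counts in all 12 libraries, where 3 counts, the upper limit that 0 allows, would be 0.0775 to 0.101 CPM. Exons of AC006511.5 and AC092111.3 cover 69.7% of its exon length, and reads that fall on more than 1 gene are usually not counted, so some of its reads could have been left out, which was not tested. Those overlapping genes had 7 and 0 counts. CLEC12A, an inhibitory receptor for uric acid crystals, had counts in 2 libraries of each group, 8 and 2 with miR-122-5p and 6 and 7 with the control mimic. Its levels were 0.0458 ± 0.0877 CPM (SD, n = 6) and 0.0613 ± 0.0967 CPM (n = 6), and without the filter edgeR's adjusted p was 0.869. No difference in either inhibitory receptor could be detected at this depth.

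CLEC10A and CD209 take up glycoproteins and are known from dendritic cells and from macrophages exposed to interleukin-4. CLEC10A (ENSG00000132514), the galactose-type lectin MGL, lies on chromosome 17 (7074537 to 7080307, minus strand). Its 6 miR-122-5p libraries held 2, 9, 2, 2, 9 and 2 counts, and its control libraries 43, 30, 26, 64, 80 and 32. In CPM this was 0.0547, 0.0606 and 0.303 (lowest, median, highest) against 0.865, 1.09 and 2.43. The highest miR-122-5p library was below the lowest control library. The log2 fold change was -3.34 ± 0.47 (SE; edgeR adjusted p = 4.33e-06). Because 4 libraries sat at 2 counts, the ratio was also taken from summed counts, 275 against 26. The control group was 10.5 times higher, with an exact 95% interval of 7.03 to 16.4 that covers counting error only.

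CD209 (ENSG00000090659), or DC-SIGN, binds mannose-rich glycans and was the most abundant of the 10 genes. It lies on chromosome 19 (7739994 to 7747564, minus strand). CD209 was at 10.3, 11.1 and 12.4 CPM (lowest, median, highest) with miR-122-5p and at 14.3, 17.1 and 20.3 CPM with the control mimic. The groups did not overlap, although the gap between them was narrow beside that of CLEC7A. Means were 11.2 ± 0.858 CPM (SD, n = 6) and 17.3 ± 2.49 CPM (n = 6), a log2 fold change of -0.62 ± 0.10 (edgeR adjusted p = 2.60e-05). Its close paralog CLEC4M, which can share reads with it, had 12 counts in all libraries together. CD209 also held a 6mer shown above, in its longest 3′ UTR, while that of CLEC10A lay in a shorter one.

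Promoter sequences were held for 5 of the 10 genes (CLEC4E, CLEC5A, CLEC12A, CD209 and CLEC2D), from 250 bases before to 50 after the RefSeq start. CD209 was the only one of the 4 lower genes among them, and its window is shown for that reason (RefSeq, GRCh38.p14, chr19:7747485-7747784, minus strand). The search covered 3 motifs on both strands: the core of the interferon-stimulated response element (GAAA and GAAA with any 2 bases between), the site bound by STAT6 (TTC and GAA with any 4 bases between), and the AP-1 site TGANTCA. No 2 matches in the windows shown or counted for these genes overlapped. Capitals mark the single match in CD209, to the interferon-stimulated response element on the reverse strand, 82 bases before the start.
CD209 promoter: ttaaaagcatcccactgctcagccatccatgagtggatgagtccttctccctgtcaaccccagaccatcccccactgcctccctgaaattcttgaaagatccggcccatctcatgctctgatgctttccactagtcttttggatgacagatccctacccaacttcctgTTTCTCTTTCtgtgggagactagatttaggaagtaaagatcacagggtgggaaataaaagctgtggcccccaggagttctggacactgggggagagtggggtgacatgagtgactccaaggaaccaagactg
That motif was present in 3.57% of 35116 RefSeq promoters of the same length, the STAT6 motif in 6.44% and the AP-1 motif in 7.71%. CLEC2D held 1 AP-1 match, and the other 3 windows held 0 of the motifs. A match is a run of letters, and no factor's binding was measured.

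The last pair are ligands of natural killer cell receptors. CLEC2B (ENSG00000110852), or AICL, is the ligand of KLRF1 (NKp80), and lies on chromosome 12 (9852984 to 9870136, minus strand). Its miR-122-5p libraries held 10, 4, 2, 11, 5 and 2 counts and its control libraries 50, 27, 24, 66, 72 and 59. In CPM it was at 0.0547, 0.137 and 0.346 (lowest, median, highest) against 0.798, 1.53 and 2.19. All 6 control libraries were above all 6 miR-122-5p libraries. The log2 fold change was -3.06 ± 0.43 (SE; edgeR adjusted p = 4.22e-06), and summed counts of 298 and 34 gave a ratio of 8.72 (exact 95% interval 6.10 to 12.8, counting error only). An antisense gene, AC091814.1, overlaps 18.2% of its exon length and had 0 counts.

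CLEC2D, or LLT1, is the ligand of KLRB1 (CD161) and lies in the same cluster (9664969 to 9699555, plus strand). It was at 3.06, 3.90 and 4.41 CPM (lowest, median, highest) with miR-122-5p and at 3.10, 3.73 and 6.15 CPM with the control mimic. The medians were close, and control libraries 4 and 6 stood above all others at 5.50 and 6.15 CPM. The log2 fold change was -0.16 ± 0.17 (edgeR adjusted p = 0.475; approximate 95% interval -0.50 to 0.18), and its direction turned once the GC and length trends were removed (0.17, adjusted p = 0.448). A fall of the size of that of CLEC2B, its relative in the same cluster, lay outside the interval.

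**Figure D2:**
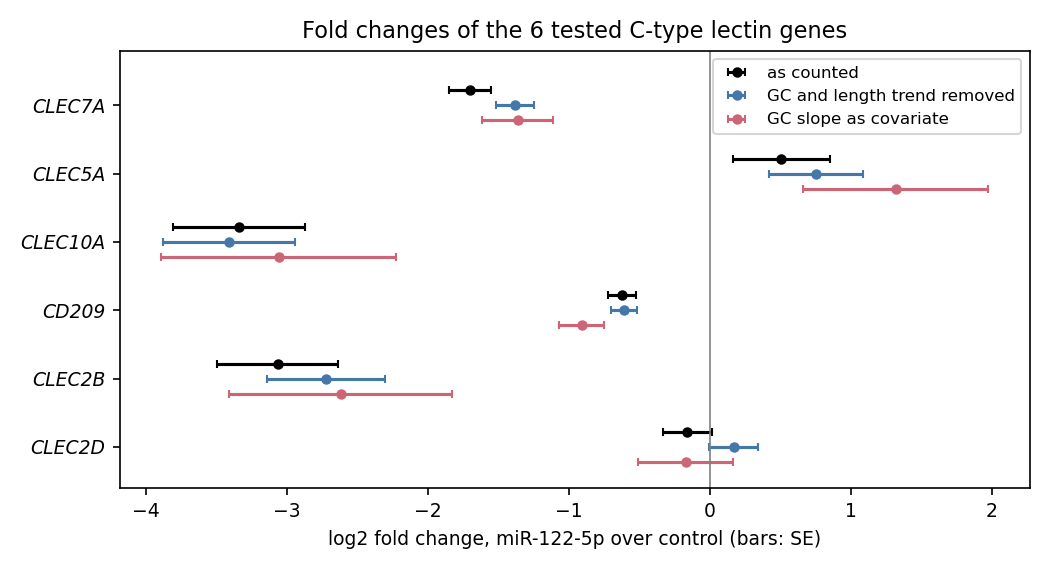
Log2 fold change (miR-122-5p over control, horizontal axis) with its SE for the 6 tested genes: as counted (black), after removal of the trends with transcript GC content and length (blue), and with library GC slopes as a covariate (red). CLEC7A, CLEC10A, CD209 and CLEC2B are below 0 in all 3 fits.

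Fold changes in these libraries also follow the GC content of transcripts, and the slope of log2 CPM on GC content, per 10 percentage points and relative to the mean over libraries, ran from 0.0336 to 0.229 with miR-122-5p and from -0.318 to 0.0119 with the control mimic. This bears on the lectins because those of chromosome 12 are AT-rich. CLEC2B (36.1% GC), CLEC2D (38.0%) and CLEC7A (38.2%) belong to the first of 5 equal bins of tested genes by GC content (26.8 to 41.3%), of which 46.4% were called lower and 6.5% higher and whose median log2 fold change was -0.30. CD209 (50.8%) lies in bin 3, with a median of -0.023, and CLEC10A (52.7%) in bin 4, of which 16.4% were called lower and 33.2% higher, with a median of 0.17. With the GC and length trends removed, the log2 fold changes were -1.38 for CLEC7A, -2.72 for CLEC2B, -0.61 for CD209 and -3.41 for CLEC10A (edgeR adjusted p from 2.46e-08 to 1.31e-05), where 23.5% of all tested genes were called lower. With the GC slope of each library as a covariate they were -1.36, -2.62, -0.91 and -3.05 (adjusted p from 0.000273 to 0.0225), where 12.2% were called lower. Without control libraries 1 and 6 they were -1.72, -3.01, -0.69 and -3.48 (edgeR adjusted p from 1.69e-08 to 1.8e-05). The GC slopes of the groups did not overlap, so the covariate shares variation with the group. SEs grew with it, from 0.149 to 0.250 for CLEC7A and from 0.101 to 0.160 for CD209. A call that ends with the covariate can therefore reflect lost precision and does not show that a change was absent.

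**Figure D3:**
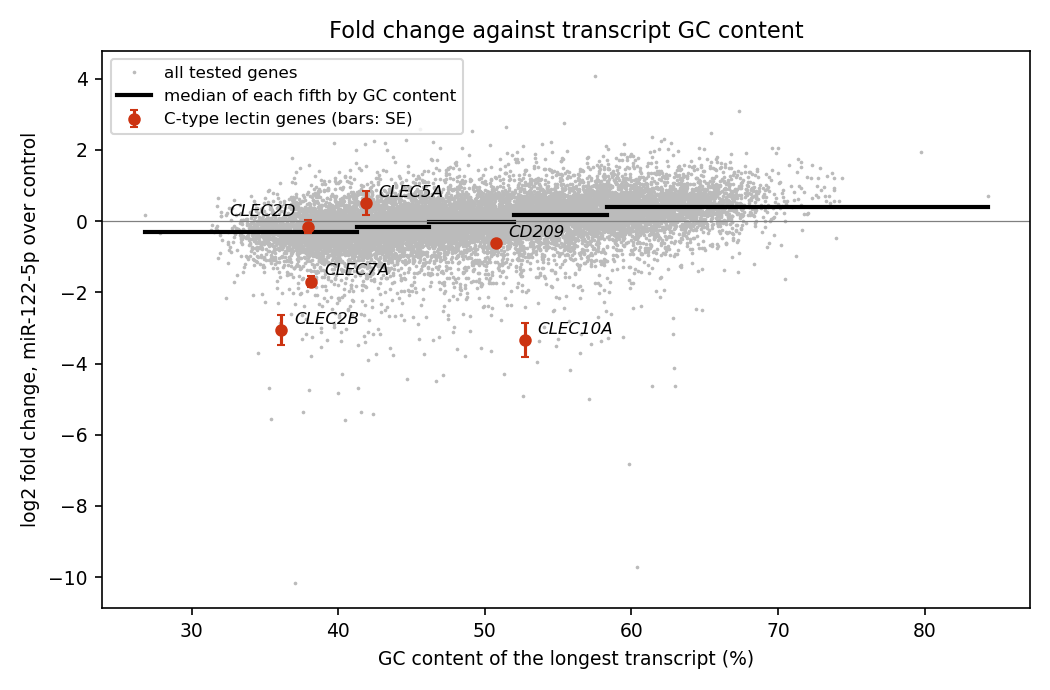
Log2 fold change (vertical axis) against GC content of the longest annotated transcript in percent (horizontal axis) for all 15471 tested genes (grey), the median of each of 5 equal bins by GC content (black lines) and the 6 tested lectins with SE (red). CLEC7A, CLEC2B, CD209 and CLEC10A lie below the median of their own bin, and CLEC5A and CLEC2D do not.

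Per kilobase of exon, which allows levels of different genes to be set side by side, CD209 stood first in control cells at 3.92 ± 0.565 RPKM (CPM per kilobase; SD, n = 6), followed by CLEC7A at 1.81 ± 0.234. CLEC2D at 0.616 ± 0.177, CLEC2B at 0.543 ± 0.203 and CLEC10A at 0.540 ± 0.250 came next and did not differ beyond their spread. CLEC5A followed at 0.150 ± 0.0551 RPKM, and CLEC4E, CLEC4D and CLEC12A at 0.0753, 0.0486 and 0.0189 RPKM were within their spread of each other. With miR-122-5p CD209 was still first at 2.55 ± 0.194 RPKM. CLEC7A and CLEC2D were level at 0.556 ± 0.112 and 0.554 ± 0.0725 RPKM, and CLEC5A at 0.214 ± 0.0655 RPKM now stood above CLEC2B and CLEC10A, at 0.0646 ± 0.0461 and 0.0531 ± 0.0463 RPKM.

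Pooled over both groups, within-group correlations showed no common variation of the 6 tested lectins, but pairs with CLEC10A or CLEC2B cannot decide this. In the group where they were lower, CLEC10A held 2 to 9 counts and CLEC2B 2 to 11, too few to show whether they varied with other genes. Whether the lectins varied together in the control libraries alone was not tested. After the mean of each group was subtracted, the Pearson correlation of log2 CPM over the 12 libraries ran from -0.71 (CD209 with CLEC2B) to 0.55 (CLEC7A with CLEC5A) over the 15 pairs, and only those extremes exceeded 0.5 in size. The coding genes most like CLEC7A in this respect, of 8069 compared, were TTC17 (0.92), MCPH1 (0.91), ABRAXAS2 (0.91) and C18orf21 (0.89). Those most like CD209 were PTPRF (0.92), ABCC1 (0.91), TMEM158 (0.91) and PRR14 (0.89). These are the highest of many values over 12 libraries, a choice that favours large ones, and no link between the genes was tested. All points share libraries, depth and the GC trend. With that trend removed the values for CD209 were 0.73, 0.83, 0.62 and 0.55, and those for CLEC7A were 0.88, 0.86, 0.85 and 0.77.

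Of the 10 genes, 7 lie in a 2.01 Mb stretch of chromosome 12 (8123632 to 10130258) with 23 other coding genes, a cluster known for C-type lectins and natural killer cell receptors. Of those 23, 7 were tested, and 3 fell, 0 rose and 4 were not called. Among all tested protein-coding genes 28.7% were called lower and 26.4% higher. In the first bin by GC content 46.4% of tested genes were called lower and 6.5% higher. A count of 7 genes is too small to be set apart from these shares. The first 4 tested genes in order, RIMKLB (-0.24 ± 0.17), the polycomb gene PHC1 (0.10 ± 0.16), the lysosomal sorting receptor M6PR (-0.09 ± 0.06) and the lymphocyte lectin KLRG1 (0.45 ± 0.47), were not called (edgeR adjusted p from 0.248 to 0.619). A2M, the protease inhibitor alpha-2-macroglobulin, fell by 0.43 ± 0.06 on the log2 scale. Beyond CLEC2D, the activation marker CD69 fell by 1.09 ± 0.28, but under the GC slope covariate its call was lost (-0.90, adjusted p = 0.222).

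CLEC1A, a lectin that recognises fungal melanin and the nearest coding neighbour of CLEC7A, had a log2 fold change of -3.49 ± 0.58 (edgeR adjusted p = 3.29e-05) at a low level, 0.0647 ± 0.0732 CPM (SD, n = 6) against 0.760 ± 0.274 CPM (n = 6). Like CLEC2B, CLEC1A could enter the test only through the control group, where it was high, so the place of these genes in the cluster supports no pattern by position. KLRF1 and KLRB1, the receptors for CLEC2B and CLEC2D, were not tested: KLRB1 was at 0 counts and KLRF1 averaged 0.0563 CPM against 0.0694 CPM.

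**Figure D4:**
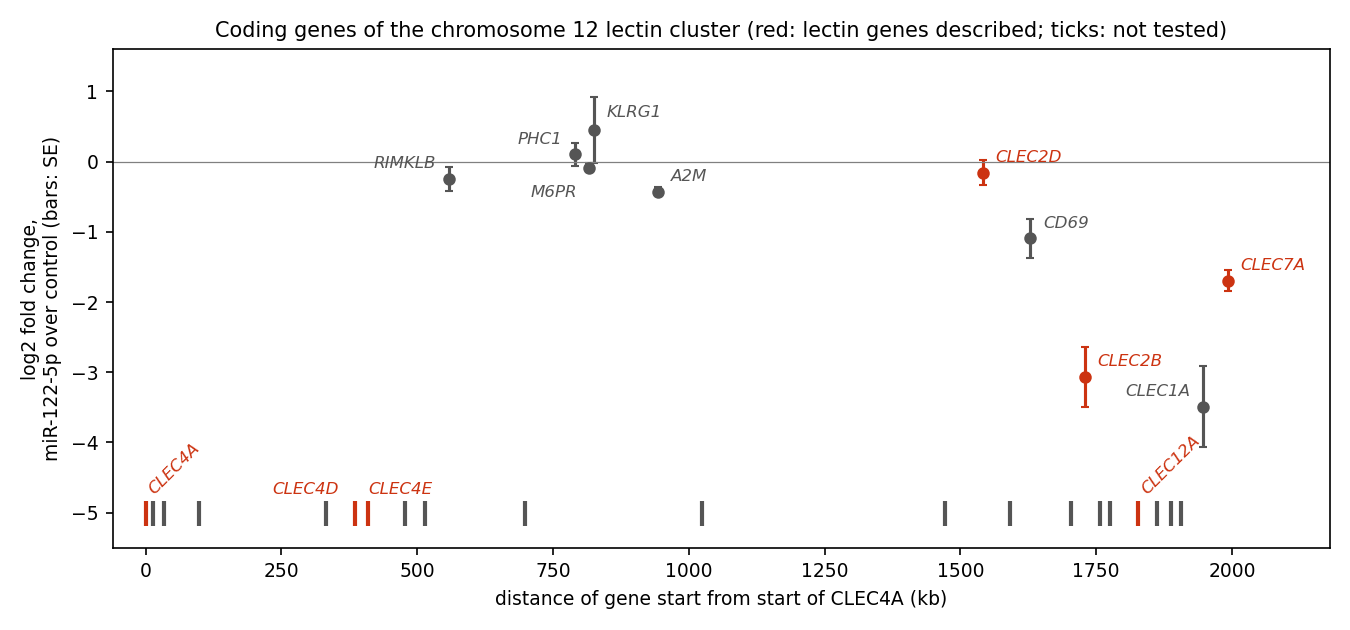
Log2 fold change with SE (vertical axis) of the tested coding genes of the chromosome 12 cluster by distance of the gene start from that of CLEC4A in kb (horizontal axis); the lectins described are in red, other genes in grey, and ticks at the bottom mark genes not tested. CLEC2B, CLEC1A and CLEC7A, at the right, are the lowest points; CLEC2B and CLEC1A passed the low-count filter through the control libraries.

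The adaptors and kinases downstream of these receptors went both ways. Of 31 genes, all tested, 15 fell, 7 rose and 9 were not called. Their median change was -0.13 (log2), beside 0.0071 over all tested genes, of which 26.2% were called lower and 24.3% higher. The kinase BTK fell by 1.74 ± 0.07 (edgeR adjusted p = 1.66e-14), the SRC-family kinase LYN by 0.89 ± 0.09, the exchange factor VAV3 by 0.88 ± 0.06 and PIK3AP1 by 0.55 ± 0.07. The core of the pathway was named after its values were seen: FCER1G, the partner chain of Mincle, fell by 0.38 ± 0.07 and SYK by 0.32 ± 0.06, while TYROBP, the partner of CLEC5A, rose by 0.30 ± 0.08 and CARD9 by 0.84 ± 0.12. The rises of TYROBP and CARD9 were called neither with the GC slope covariate (0.15, adjusted p = 0.539, and 0.18, adjusted p = 0.367) nor, for TYROBP, with the GC and length trends removed (-0.03, adjusted p = 0.748; CARD9 was then at 0.36). LYN and PIK3AP1 shrank to -0.57 and -0.31 with the covariate. With it the list held 9 lower and 2 higher genes, where 12.2% and 7.23% of all tested genes were called.

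Genes listed as restraints on these receptors, among them phosphatases and ligases, were lower for 9 of 15 tested (of 16), higher for 4 and not called for 2. Their median was -0.29, and -0.59 with the GC and length trends removed. Over all tested genes 26.2% were called lower and 24.3% higher. RUBCN, which is known to bind CARD9, fell by 1.43 ± 0.09, the leukocyte phosphatase PTPRC (CD45) by 1.21 ± 0.08, the lipid phosphatase INPP5D (SHIP1) by 0.92 ± 0.08 and the ubiquitin ligase CBLB by 0.87 ± 0.11. The 4 that rose were PTPN11 (0.23), INPPL1 (0.36), DOK2 (0.54) and DOK3 (0.57). With the GC slope covariate 8 were called lower and 1 higher, PTPN11 (0.43), beside 12.2% and 7.23% of all tested genes. INPPL1 was also not called with the GC and length trends removed (0.04).

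Cytokines and early response genes that these receptors can induce, which LPS also induces, were lower for 8 of 19 tested (of 20), higher for 4 and not called for 7 (median -0.07). The shares over all tested genes were 26.2% lower and 24.3% higher. With the GC and length trends removed 8 of the 19 were lower and 6 higher (median -0.20), beside 23.5% and 23.3% of all tested genes. With the GC slope covariate 3 were lower and 3 higher, beside 12.2% and 7.23%. The lower calls of IL10, CXCL1, CCL4, PTGS2 and NFKBIZ ended under that covariate (edgeR adjusted p from 0.188 to 0.978). IL6 fell by 2.77 ± 0.20 (other genes overlap 20.7% of its exons) and the interleukin-1 antagonist IL1RN by 0.71 ± 0.07. IL23A, which encodes a subunit of the T-helper 17 cytokine interleukin-23, rose by 0.71 ± 0.09, and the growth factor CSF2 by 1.06 ± 0.17. CCL3 (0.42 ± 0.16, edgeR adjusted p = 0.0377) and EGR2 (0.21 ± 0.08, adjusted p = 0.0353) also passed, but narrowly: the covariate turned both (-0.19 and -0.16). The CCL3 call ended without miR-122-5p libraries 1, 4 or 6 or control libraries 3 or 6 (adjusted p from 0.0518 to 0.093) and with DESeq2 (0.0643), and other genes overlap 74.6% of its exons. The EGR2 call ended without miR-122-5p libraries 2, 3 or 4 or control libraries 1, 5 or 6 (0.0509 to 0.0734). Without control libraries 1 and 6 together neither was called (CCL3 0.17, adjusted p = 0.083; EGR2 0.12, adjusted p = 0.187).

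Among 59 other genes with a C-type lectin domain, 19 had no counts and 20 were tested. Of the 20, 5 fell, 4 rose and 11 were not called (median -0.07), where 26.2% of all tested genes were called lower and 24.3% higher. Besides CLEC1A and CD69, the falls included those of the asialoglycoprotein receptor chain ASGR2 (-1.75 ± 0.27) and thrombomodulin THBD (-0.47 ± 0.12). CLEC1A, like CLEC10A and CLEC2B, had nearly all its counts in control libraries. The rises were those of MRC2 (0.63 ± 0.10), CLEC11A (0.68 ± 0.11), LAYN (0.74 ± 0.26) and CD72 (0.60 ± 0.23). With the GC slope covariate 0 of the 4 were called, although LAYN kept its size (0.77, edgeR adjusted p = 0.319). That setting also ended the call of THBD (-0.57, adjusted p = 0.0719) and left MRC2 at 0.03 and CLEC11A at -0.0015. The CD72 call further ended with the GC and length trends removed (adjusted p = 0.110) and without miR-122-5p libraries 2, 5 or 6 or control libraries 1, 5 or 6 (adjusted p from 0.0603 to 0.0895; 0.134 without control libraries 1 and 6 together), and that of LAYN without miR-122-5p library 6 (0.0621). The mannose receptor MRC1, the best known macrophage member of the family, averaged 0.0729 CPM with the control mimic, had no counts with miR-122-5p, and was not tested.

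Other receptors for beta-glucan or mycobacterial products were lower for 7 of 13 tested (of 14), higher for 4 and not called for 2 (median -0.25). The direction of that median turned with the GC and length trends removed (0.03, with 6 lower and 3 higher). With the GC slope covariate 5 were lower and 0 higher. In these fits, in order, 26.2%, 23.5% and 12.2% of all tested genes were called lower and 24.3%, 23.3% and 7.23% higher. The scavenger receptor MSR1 fell by 2.29 ± 0.11, from 103.5 ± 7.69 to 21.2 ± 4.29 CPM (SD, n = 6). TLR2, which is known to cooperate with Dectin-1, fell by 1.58 ± 0.08 (108.0 ± 11.2 against 323.7 ± 24.3 CPM, n = 6), the peptidoglycan sensor NOD2 by 1.31 ± 0.13 and TLR4 by 0.85 ± 0.11 (-0.52 with the GC and length trends removed). The rises were those of MARCO (1.47 ± 0.27), the complement receptor chains ITGAM (0.19 ± 0.06) and ITGB2 (0.35 ± 0.06), and LGALS3 (0.29 ± 0.08). Under the GC slope covariate 0 of these 4 were called (adjusted p from 0.150 to 0.962), and ITGAM turned to -0.0093; ITGAM and ITGB2 were also not called with the GC and length trends removed (0.11 and 0.08).

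Over all tested genes 26.2% were called lower and 24.3% higher. Genes for partners or ligands of these lectins were lower for 6 of 9 tested (of 12) and higher for 2 (median -0.18, and -0.40 with the GC and length trends removed). One of the 6, SAP130 (-0.77 ± 0.09), encodes a Sin3A-associated protein and is no ligand gene: the Mincle ligand of that name is the product of SF3B3, which was not called (0.05 ± 0.06, edgeR adjusted p = 0.558). Without SAP130, left out after its values were seen, the count was 5 of 8 lower and 2 higher. ANXA1, which encodes a phospholipid-binding annexin, fell by 0.70 ± 0.06 (-0.41 with the GC and length trends removed). VIM, of whose exons 24.4% overlap antisense genes, fell by 0.52 ± 0.07, and the tetraspanins CD63 and CD82 rose by 0.40 ± 0.07 and 0.35 ± 0.08. With the GC slope covariate the calls of VIM (-0.25, adjusted p = 0.0514), CD63 (0.35, adjusted p = 0.0574) and CD82 (0.03, adjusted p = 0.878) ended.

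Transcription factors of the myeloid lineage were lower for 4 and higher for 7 of 18 tested, beside 26.2% and 24.3% of all tested genes. The median of the list was -0.0018. The falls included those of IRF4 (-1.40 ± 0.16, at 2.45 ± 0.571 against 6.49 ± 0.777 CPM, SD, n = 6), IRF5 (-0.84 ± 0.08) and KLF4 (-0.68 ± 0.09). The lipid-sensing receptor PPARG rose by 0.66 ± 0.08. The split changed with the GC and length trends removed, to 10 lower and 5 higher (23.5% and 23.3% of all tested genes).

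Genes of alternative macrophage activation, the state in which CLEC10A and CD209 are known to be induced, were lower for 7 of 11 tested (of 20), higher for 1 and not called for 3 (median -0.71). Besides MSR1, the chitinase-like gene CHI3L2 fell by 1.63 ± 0.16 and the interleukin-13 receptor chain IL13RA1 by 0.79 ± 0.07, and the chemokine CCL22 rose by 1.42 ± 0.08. With the GC slope covariate 7 were called lower and 1 higher, where 12.2% and 7.23% of all tested genes were called. The 7 were not all the same genes: the call of CCL13 ended (edgeR adjusted p = 0.343) and IL4R was called lower (-0.48, adjusted p = 0.000982).

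**Figure D5:**
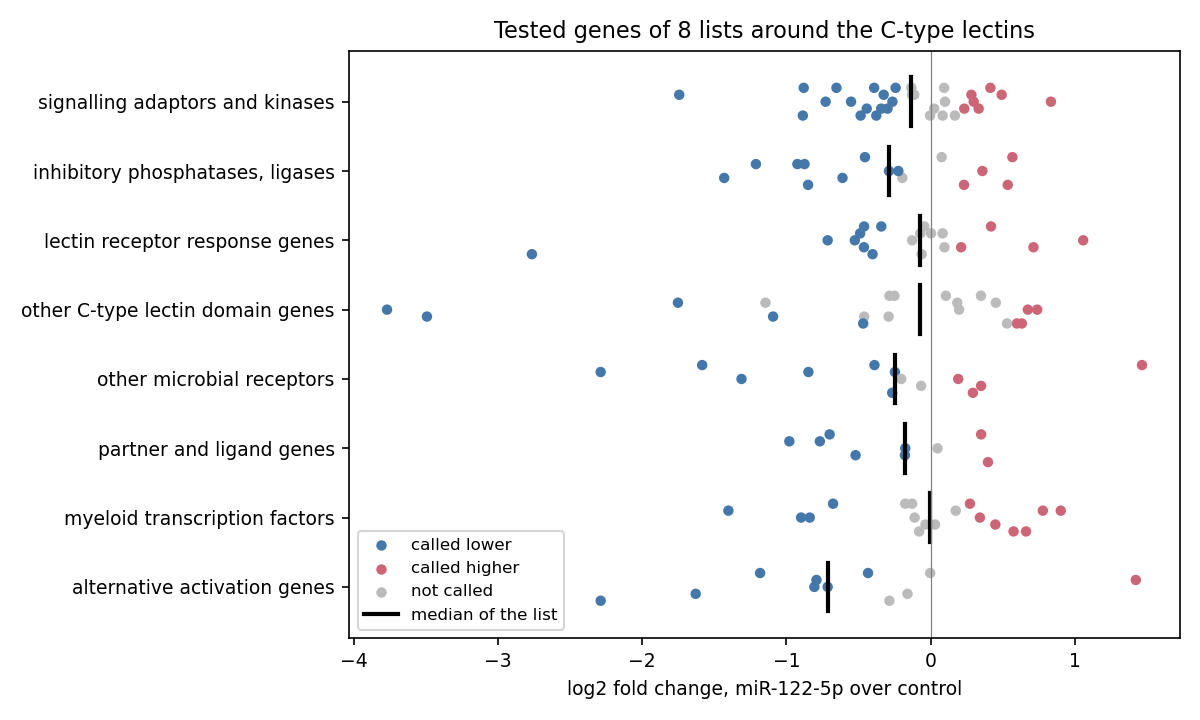
Log2 fold change (horizontal axis) of the tested genes of 8 lists (rows); points are genes, blue where called lower, red where called higher and grey where not called, and the black bar is the median of each list. Medians run from -0.71 (alternative activation genes) to -0.0018 (myeloid transcription factors).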

How the data were processed

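The authors deposited 1 table of raw read counts per gene for 12 libraries, per the file headers, not normalized. HISAT2 2.0.5 and featureCounts 1.5.0-p3 are listed, with the build hg38, per the submitters' processing notes; strand use in counting is not given in the sources used here. Columns were matched to samples by group name and number, the control columns by their name "nc". All 58735 identifiers matched GENCODE 29, which gave symbols, positions, exon lengths, exon overlaps, 3′ UTRs and the GC content and length of each gene's longest transcript. Counts from 1 to 20 were even in 66.7% of cases, against 50.2% for counts from 100 to 1000; the reason was not tested, and counting intervals may be too narrow for it.

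In R 4.3.3, counts were filtered with filterByExpr, scaled with TMM factors and tested with edgeR 4.0.16 (quasi-likelihood, group only, Benjamini-Hochberg adjustment over 15471 genes, threshold 0.05); SEs were derived from the F statistic. Within-group correlations used log2 CPM with a prior count of 2. The fit was checked on simulated data. GC and length trends were removed as offsets (natural splines with 4 degrees of freedom each).

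The members, lists and alternatives were chosen with earlier results of these data known. Named were all members, up to 4 called genes of smallest p in each list, up to 12 tested neighbours on chromosome 12, the 4 coding genes most like CD209 (highest mean) and CLEC7A (smallest p), and genes of counts of 5 or fewer. The choice of the 3 motifs, and the removal of a cubic GC trend from the correlations, followed a look at the data. Alternatives also used DESeq2 1.42.0 and limma 3.58.1 (voom). Some results are not reported here.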

Additional observations from a re-analysis of the deposited data

Results flagged for a closer look

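Of 18 groups of 6 libraries with any count for a lectin gene, 3 held 1 library that stood apart from the other 5 by the gap between sorted values. Chance marks about 1 in 20 groups of continuous values, a rate that does not carry over to groups made mostly of 0 and 2 counts, where ties fix the gap. All 3 are such groups, of genes too low to be tested, and nothing is read from them. CLEC4E was at 0.408 CPM (14 counts) in miR-122-5p library 1, where the next highest library of that group had 2 counts. CLEC4D was at 0.0582 CPM (2 counts) in the same library and at 0 in the other 5. CLEC12A was at 0.219 CPM (8 counts) in miR-122-5p library 3, where the next highest had 2.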

How the results depend on the processing

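CLEC7A, CLEC10A, CD209 and CLEC2B kept their direction and their call under every alternative in which they were tested, with log2 fold changes from -1.77 to -1.36, -3.72 to -3.05, -0.91 to -0.56 and -3.37 to -2.62. CLEC5A and CLEC2D were called under none (adjusted p from 0.0653 to 0.397 and from 0.277 to 0.933). With each library left out in turn, CLEC5A ran from 0.35 to 0.66 and CLEC2D from -0.24 to -0.02. The filter at 1 CPM in 6 libraries removed CLEC10A, CLEC2B and CLEC5A, which left 2 lectins called lower. CLEC2D turned to 0.17 with the GC and length offsets and to 0.20 with the replicate block added to them. Over any annotated 3′ UTR, 2 of the 10 genes held a seed match.

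With the GC slope covariate 1887 genes were called lower and 1118 higher in all, so that 37.2% of calls were higher, against 48.1% without it; the cause was not tested. The covariate turned CCL3 to -0.19, EGR2 to -0.16, DOK2 to -0.056, CLEC11A to -0.0015, ITGAM to -0.0093 and PHC1 to -0.12. Under the GC and length offsets, the covariate, and the offsets with the replicate block, M6PR was at 0.0072, 0.0043 and 0.0088 and RIMKLB at 0.043, 0.071 and 0.034. TYROBP was at -0.033 with the offsets and -0.027 with the block as well. Of 57 other genes named by the rule given above, 33 kept direction and call under all alternatives.

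Libraries share replicate numbers in the labels, which do not say whether the numbers pair them, and no pairing was seen. Correlations of same-numbered deviations ran from -0.105 to 0.066 and 1 of 6 was highest for its own number. Trends across a whole library, such as that with GC content, could hide a weaker pairing. With the replicate block 3885 genes were called lower and 3702 higher, and none of the 6 tested lectins changed its call. The call of CD72 ended (edgeR adjusted p = 0.0571). Depth limits CLEC4E, CLEC4D, CLEC12A and CLEC4A to statements about detection.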
